A study of Rattus norvegicus with 12 samples.

Results

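Endothelial cells line every blood vessel of the kidney, and 8 genes that are widely used to recognise them were followed here through cardiopulmonary bypass (CPB, circulation through a heart-lung machine) and bypass with nitrite. The 8 genes were given by name: Cdh5, Robo4, Plvap, Pecam1, Emcn, Egfl7, Eng and Vwf. All 8 were found among the 30208 genes of the deposited count table, and all 8 were among the 14664 genes with enough reads to be tested. RNA came from rat kidney in 12 libraries of 3 groups of 4, namely sham, CPB and CPB+Nitrite, in which bypass was combined with nitrite, which the body can turn into nitric oxide. The labels give no strain, sex, age, nitrite dose, bypass duration or sampling time, and they do not say what the sham procedure was. They also do not tie the replicates to individual rats, so p-values measure only the spread between these samples, which may be technical.

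The 8 genes cover several working parts of the endothelial cell. Cdh5 encodes VE-cadherin, the adhesion molecule of the adherens junction, and Pecam1 encodes PECAM-1 (CD31), which sits at cell-cell contacts. Robo4 is the endothelial member of the Roundabout receptor family and is known for its part in vessel stability. Plvap encodes the protein that forms the diaphragms of fenestrae and caveolae, and Emcn encodes endomucin, a sialomucin of the luminal surface. Both are abundant in fenestrated peritubular capillaries of the kidney, whereas mature glomerular endothelium is known for fenestrae without diaphragms. Eng encodes endoglin, a co-receptor for BMP9 and TGF-beta, Egfl7 a secreted protein of the vessel wall, and Vwf von Willebrand factor, which is stored in Weibel-Palade bodies, is released on activation and is made by megakaryocytes as well.

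Endothelial promoters are known for binding sites of ETS family transcription factors, so the promoter windows of the genes that moved in opposite directions after bypass are shown. The windows run from 250 bases before to 50 bases after the gene start in the RefSeq annotation of GRCr8, and were found for 5 of the 8 genes (6 windows, since Egfl7 has 2 starts). Entries were not found for Cdh5, Pecam1 and Vwf. Capitals mark 1 form of the ETS motif, AGGAAG or, for the opposite strand, CTTCCT, and other forms were not searched for. Robo4 rose after bypass, Emcn fell, and Plvap was lower in every CPB library than in every sham library. The windows lie at chr8:45308489-45308788 on the plus strand (Robo4), chr16:18231230-18231529 on the minus strand (Plvap) and chr2:228564289-228564588 on the plus strand (Emcn).
Robo4: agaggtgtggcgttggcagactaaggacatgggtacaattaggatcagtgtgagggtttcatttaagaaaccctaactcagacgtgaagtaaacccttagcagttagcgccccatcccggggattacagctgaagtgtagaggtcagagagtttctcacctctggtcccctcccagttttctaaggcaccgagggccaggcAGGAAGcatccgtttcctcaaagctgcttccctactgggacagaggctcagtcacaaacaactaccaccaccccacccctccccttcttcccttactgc
Plvap: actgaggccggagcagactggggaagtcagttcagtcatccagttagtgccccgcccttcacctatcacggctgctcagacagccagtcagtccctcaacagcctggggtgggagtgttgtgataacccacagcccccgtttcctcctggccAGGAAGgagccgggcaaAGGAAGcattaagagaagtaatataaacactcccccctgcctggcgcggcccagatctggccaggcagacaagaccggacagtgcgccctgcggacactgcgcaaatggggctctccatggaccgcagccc
Emcn: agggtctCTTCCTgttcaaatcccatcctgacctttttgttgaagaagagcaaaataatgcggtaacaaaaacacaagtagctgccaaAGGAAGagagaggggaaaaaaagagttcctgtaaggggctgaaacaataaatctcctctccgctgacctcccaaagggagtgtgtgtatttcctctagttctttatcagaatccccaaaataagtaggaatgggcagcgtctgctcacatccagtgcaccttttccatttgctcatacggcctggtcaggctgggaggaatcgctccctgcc
This form of the ETS motif was present in at least 1 window of all 5 genes (5 of 6 windows), and in 34.5% of all 33469 rat windows of this length. A forkhead motif, GTAAACA (opposite strand TGTTTAC), was in 3.78% of all windows, and a GATA motif, AGATAA (opposite strand TTATCT), in 11.6%. The count of both was 0 in the windows of these genes. These matches describe letters in 1 window per gene start and do not separate Robo4 from Plvap and Emcn.

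The libraries held between 16.8 and 25.8 M reads each (M, mega). Levels are given as counts per 1e+06 reads (CPM) scaled with TMM factors, and they compare 1 gene between libraries, since they are not divided by gene length. Log2 changes, their standard errors (SE) and adjusted p-values come from 1 edgeR quasi-likelihood fit of the 12 libraries, with Benjamini-Hochberg adjustment over 14664 genes and a threshold of 0.05. Kidney was checked with 6 proximal tubule markers, which were abundant in every library but differed by group in their summed level. They summed to 3260 to 4540 CPM in sham, 1960 to 3020 CPM in CPB and 2180 to 2750 CPM in CPB+Nitrite, so every bypass library lay below every sham library. Of the 6, the transporter genes Slc34a1 (-0.78, adjusted p = 0.00634) and Slc22a6 (-1.06, adjusted p = 0.00109) fell in CPB versus sham. The count that rose was 0, where 21.7% of all genes rose and 21.5% fell. Of the 6 log2 changes, 3 were above 0 and 3 below, with a median of -0.19. CPB+Nitrite 2 stood apart from the other 11 libraries. Its 8 endothelial genes summed to 2380 CPM against 206 to 443 CPM elsewhere, so the counts and the genes that it moves most are also given without it, for the gene lists as an alternative chosen after seeing the data. The same library held the highest summed levels of 8 genes known from the renal inner medulla and from osmolyte handling, a list chosen after these values were seen, at 5640 CPM against 997 to 1930 CPM. Akr1b1, which encodes the sorbitol-producing aldose reductase, was at 1386 CPM there and at 18.3 to 148 CPM in the other 11 libraries. Erythrocyte markers summed to 8140 CPM in CPB+Nitrite 2 against 485 to 4050 CPM elsewhere, and podocyte markers to 892 CPM against 213 to 512 CPM. Sham 1 was the highest library for pericyte and smooth muscle (670 CPM), adipocyte (339 CPM) and urothelial markers (164 CPM), where the other sham libraries reached at most 180, 132 and 28.6 CPM. The part of these differences in the results below was not tested.

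After bypass the 8 genes split. Cdh5 and Robo4 rose, Emcn fell, and the other 5 did not pass the threshold, with Plvap nonetheless lower in all 4 CPB libraries than in any sham library. A count of 3 of 8 is close to the background, since 43.2% of all genes tested passed in CPB versus sham (21.7% higher and 21.5% lower). The CPB libraries lay wholly above the sham libraries for 2 of the 8 (23.5% of all genes) and wholly below them for 2 (24.8% of all genes). When CPB+Nitrite 2 was left out, the count was 5 of 8 (2 higher and 3 lower, with Plvap and Pecam1 added), beside 51.3% of all genes, and without sham 1 it was 2 of 8, beside 33.9%. The median log2 change of the 8 genes was -0.28, beside -0.05 over all genes tested. In whole tissue, fewer cells of a type and less RNA per cell cannot be told apart.

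**Figure D1:**
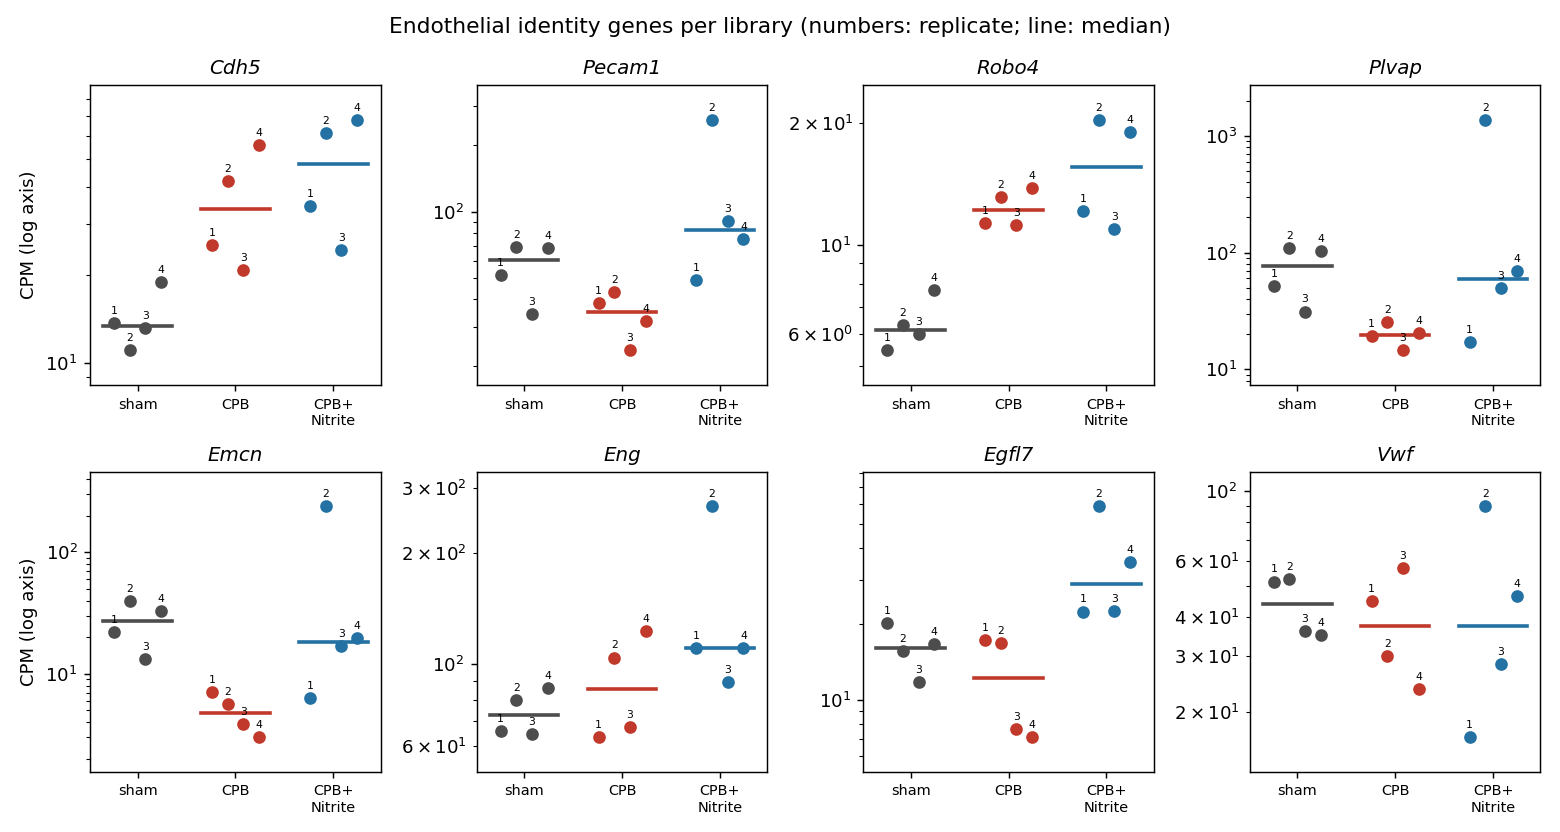
TMM-scaled CPM (log axis) of the 8 endothelial genes in each of the 12 libraries, 1 panel per gene; points are libraries numbered by replicate and lines are medians of 4. Cdh5 and Robo4 lie higher in every CPB library than in every sham library, Plvap and Emcn lower, and CPB+Nitrite 2 reaches 1380.5 CPM for Plvap.

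Among the junction genes, Cdh5 (ENSRNOG00000013324, mRatBN7.2 chr19:815411-854368, minus strand) was at 13.7, 11.1, 13.2 and 18.95 CPM in sham 1 to 4. It was at 25.3, 42.0, 20.9 and 55.5 CPM in CPB 1 to 4 and at 34.6, 61.2, 24.4 and 68.1 CPM in CPB+Nitrite 1 to 4. All 8 bypass libraries lay above all 4 sham libraries, and the CPB and CPB+Nitrite groups overlapped. The log2 change was 1.34 (SE 0.36, adjusted p = 0.0118) in CPB versus sham and 1.73 (SE 0.36, adjusted p = 0.0323) in CPB+Nitrite versus sham. Between CPB+Nitrite and CPB it was 0.39 (SE 0.35, adjusted p = 0.463).

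Pecam1 (ENSRNOG00000066008, chr10:91590521-91652116, minus strand) differed from Cdh5 although both encode contact proteins. Sham libraries held 51.9, 69.1, 34.3 and 68.4 CPM, CPB libraries 38.5, 43.4, 23.5 and 31.9 CPM, and CPB+Nitrite libraries 48.9, 262, 90.7 and 75.4 CPM. Sham and CPB overlapped, whereas every CPB+Nitrite library was above every CPB library. The log2 change was -0.70 (SE 0.44, adjusted p = 0.202) in CPB versus sham and 1.79 (SE 0.44, adjusted p = 0.0576) in CPB+Nitrite versus CPB. Without CPB+Nitrite 2 the former kept its size with a smaller error and passed (SE 0.26, adjusted p = 0.0413), and the latter was 1.06 (SE 0.28, adjusted p = 0.117).

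Robo4 (ENSRNOG00000049289, chr8:37119988-37132519, plus strand) had the smallest spread of the 8 genes within the CPB group relative to its mean. It was at 5.47, 6.32, 6.01 and 7.73 CPM in sham, at 11.3, 13.1, 11.2 and 13.8 CPM in CPB, and at 12.1, 20.4, 10.97 and 19.0 CPM in CPB+Nitrite. As for Cdh5, no bypass library overlapped the sham range. The change was 0.95 (SE 0.22, adjusted p = 0.00572) in CPB versus sham, 1.29 (SE 0.22, adjusted p = 0.0262) in CPB+Nitrite versus sham, and 0.34 (SE 0.22, adjusted p = 0.301) in CPB+Nitrite versus CPB.

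Plvap and Emcn, the diaphragm protein and the surface sialomucin, showed the opposite pattern. Plvap (ENSRNOG00000017676, chr16:18184975-18197301, minus strand) was at 51.8, 110, 31.2 and 102 CPM in sham and at 19.1, 25.5, 14.5 and 20.3 CPM in CPB. In CPB+Nitrite 1 to 4 it was at 17.2, 1380.5, 50.1 and 69.0 CPM. All CPB libraries were below all sham libraries. CPB+Nitrite 1 lay within the CPB range, CPB+Nitrite 3 and 4 within the sham range, and CPB+Nitrite 2 above every other library. The log2 change was -1.89 (SE 1.04, adjusted p = 0.153) in CPB versus sham, with all 12 libraries sharing 1 spread. Without CPB+Nitrite 2 it was again -1.89, with an SE of 0.45 and an adjusted p of 0.00483.

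Emcn (ENSRNOG00000022910, chr2:225891100-225970929, plus strand) was at 22.1, 39.8, 13.1 and 32.8 CPM in sham and at 7.07, 5.67, 3.85 and 3.01 CPM in CPB. The CPB+Nitrite libraries held 6.30, 239, 16.9 and 19.6 CPM. The CPB+Nitrite libraries were placed as for Plvap, with CPB+Nitrite 1 among the CPB values and CPB+Nitrite 3 and 4 among the sham values. The log2 change in CPB versus sham was -2.45 (SE 0.92, adjusted p = 0.0471). It did not pass when sham 1, 2 or 4 or any 1 of the CPB libraries was left out (adjusted p = 0.0676 to 0.111), and it was -2.45 (SE 0.42, adjusted p = 0.00106) without CPB+Nitrite 2.

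With nitrite against bypass alone, Plvap and Emcn had the largest log2 changes of the 8 genes, and both rested on CPB+Nitrite 2. For Plvap the change was 4.25 (SE 1.15, adjusted p = 0.0611), and 1.19 (SE 0.46, adjusted p = 0.189) without that library. For Emcn it was 3.83 (SE 0.97, adjusted p = 0.0584), and 1.53 (SE 0.44, adjusted p = 0.124) without it. In both genes 3 of 4 CPB+Nitrite libraries were above all 4 CPB libraries. Against sham the direction turned with the library, from 2.36 (adjusted p = 0.168) to -0.70 (adjusted p = 0.312) for Plvap and from 1.39 (adjusted p = 0.314) to -0.92 (adjusted p = 0.165) for Emcn.

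Eng, the BMP9 co-receptor (ENSRNOG00000050190, chr3:15934518-15973230, plus strand), was at 65.7, 80.0, 64.4 and 86.1 CPM in sham, at 63.3, 104, 67.4 and 122.5 CPM in CPB, and at 110.2, 267, 89.5 and 110.4 CPM in CPB+Nitrite. Sham and CPB overlapped, and every CPB+Nitrite library was above every sham library. The log2 changes were 0.27 (SE 0.32, adjusted p = 0.513) in CPB versus sham, 0.69 (SE 0.33, adjusted p = 0.175) in CPB+Nitrite versus CPB and 0.96 (SE 0.33, adjusted p = 0.0899) in CPB+Nitrite versus sham.

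The secreted factor Egfl7 (ENSRNOG00000019388, chr3:9407520-9416879, plus strand) was at 20.2, 15.6, 11.8 and 16.7 CPM in sham and at 17.3, 16.8, 7.65 and 7.10 CPM in CPB. CPB 1 and 2 lay within the sham range and CPB 3 and 4 below it. CPB+Nitrite libraries were at 22.4, 58.8, 22.5 and 35.3 CPM, all above every sham and every CPB library. The log2 change was -0.39 (SE 0.37, adjusted p = 0.398) in CPB versus sham, 1.51 (SE 0.37, adjusted p = 0.0576) in CPB+Nitrite versus CPB and 1.11 (SE 0.37, adjusted p = 0.0836) in CPB+Nitrite versus sham. Without CPB+Nitrite 2 the change against CPB was 1.13 (SE 0.33, adjusted p = 0.126).

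Vwf (ENSRNOG00000019689, chr4:158360152-158491539, plus strand) had the smallest log2 change of the 8 genes in each comparison. It was at 51.7, 52.5, 36.1 and 35.05 CPM in sham, at 44.9, 30.1, 56.9 and 23.6 CPM in CPB and at 16.6, 89.5, 28.4 and 46.5 CPM in CPB+Nitrite, and all 3 groups overlapped. The log2 changes were -0.17 (SE 0.43, adjusted p = 0.761) in CPB versus sham, 0.22 (SE 0.43, adjusted p = 0.748) in CPB+Nitrite versus CPB and 0.05 (SE 0.43, adjusted p = 0.953) in CPB+Nitrite versus sham. Each of these turned sign under at least 1 alternative setting or left-out library, so no direction is given for Vwf. Platelets and megakaryocytes also carry Vwf and Pecam1. Of 8 of their markers 7 stayed under 2 CPM in every library (highest 1.36 CPM). The exception, Itga2b, which encodes integrin alpha IIb, was the 1 marker tested and fell from 26.3 ± 2.70 to 10.5 ± 2.02 CPM (SD, n = 4) in CPB versus sham (log2 change -1.32, adjusted p = 0.00442). Itga2b held 5210 reads over the 12 libraries and Pf4, the next of the 8, held 109. Whether the Itga2b reads came from platelets was not tested.

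**Figure D2:**
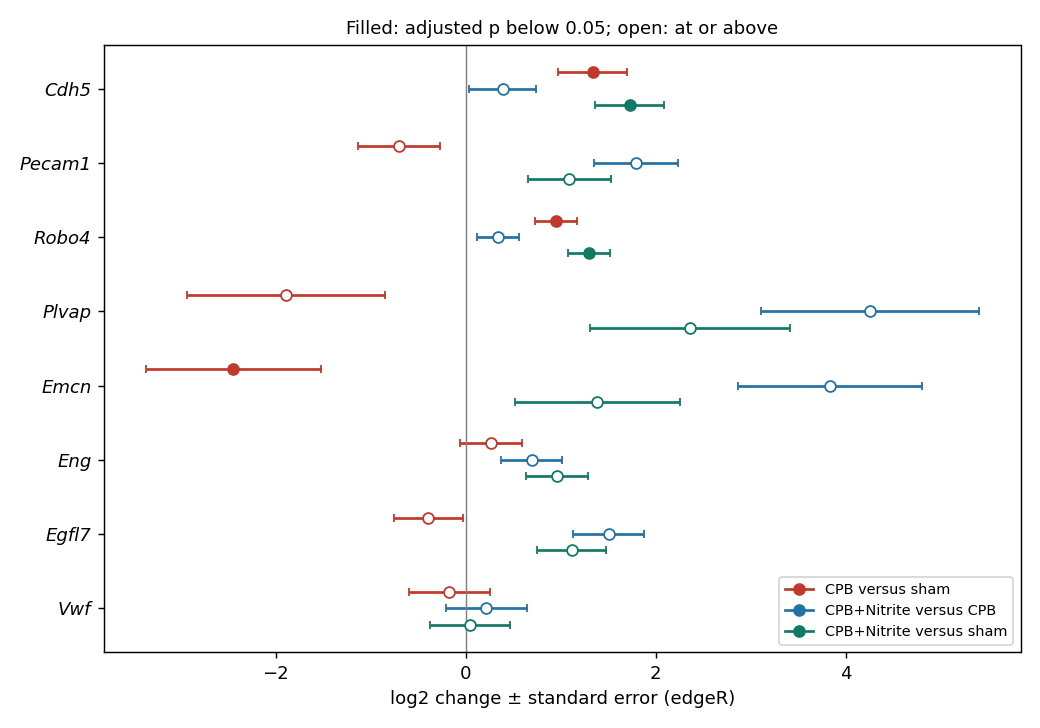
Log2 change of the 8 endothelial genes in the 3 comparisons; points are edgeR estimates from 4 libraries per group and bars are 1 SE. In CPB versus sham the estimates run from -2.45 (Emcn) to 1.34 (Cdh5), whereas in CPB+Nitrite versus CPB all 8 lie above 0.

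In CPB+Nitrite versus CPB none of the 8 genes passed the threshold, and neither did any other gene (0% of 14664 by edgeR). At an unadjusted p below 0.05 there were 4 of the 8 (Plvap, Pecam1, Emcn and Egfl7), against 29.4% of all genes tested. DESeq2 called 3 (Pecam1, Emcn and Egfl7) among 2235 genes and gave Plvap no p-value, while limma voom with sample weights called 0 of the 8 and 1 gene in all. Leaving out CPB+Nitrite 1, the library with the lowest values of Plvap and Emcn in its group, gave 4 calls among the 8 and 2865 among all genes. Leaving out CPB+Nitrite 2 gave 0 among the 8, and also 0 among all 14778 genes tested in that fit. All 8 changes were above 0, beside 54.1% of all genes, with a median of 1.10 beside 0.05. When CPB+Nitrite 2 was left out, 7 of 8 were above 0 (all but Vwf, at -0.35) beside 53.7% of all genes, and the median was 0.65 beside 0.04. The nitrite libraries lay wholly above the CPB libraries for 2 of the 8 (Pecam1 and Egfl7), and 6.44% of all genes did so.

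In CPB+Nitrite versus sham, Cdh5 and Robo4 passed, 2 of 8, where 4.81% of all genes passed (3.85% higher and 0.955% lower). Both calls were sensitive to the libraries, as were the calls over all genes. Of all genes, 3 of 14813 passed without sham 1. None did without sham 2, without CPB+Nitrite 4 or with sham and CPB+Nitrite fitted alone. With 1 library left out, the log2 change ran from 1.49 to 1.94 for Cdh5 and from 1.14 to 1.43 for Robo4. Neither passed without sham 1, 2 or 4 or CPB+Nitrite 4, or when the sham and CPB+Nitrite libraries were fitted alone (adjusted p = 0.112 for each), and 1 of the 2 passed without sham 3, CPB 2 or CPB+Nitrite 1. Without CPB+Nitrite 3 there were 4 calls, in a fit where 2976 of all genes passed. Without CPB+Nitrite 2 both passed, at 1.58 (adjusted p = 0.0246) for Cdh5 and 1.14 (adjusted p = 0.0152) for Robo4, beside 12.2% of all genes. All 8 changes were above 0 (52.9% of all genes), with a median of 1.204. Without CPB+Nitrite 2, 5 of 8 were above 0 (49.5% of all genes), with a median of 0.42, and Plvap, Emcn and Vwf were below 0. All CPB+Nitrite libraries exceeded all sham libraries for 4 of the 8 (Cdh5, Robo4, Egfl7 and Eng), beside 5.64% of all genes. This comparison shares its sham libraries with CPB versus sham and its nitrite libraries with CPB+Nitrite versus CPB.

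The balance between the 8 genes was described as each gene's log2 CPM minus the mean of the other 7 in the same library, relative to the sham mean. On this scale the relative level of Cdh5 was 1.32 to 2.79 in CPB and -0.64 to 0.43 in sham, and that of Robo4 1.29 to 1.79 in CPB and -0.27 to 0.44 in sham. Plvap lay at -1.71 to -1.39 in CPB and -0.69 to 0.59 in sham, and Emcn at -2.92 to -1.71 and -0.52 to 0.51. These 4 genes were those whose CPB and sham libraries do not overlap in CPM, and each value also subtracts the other genes, so low Plvap and Emcn raise the relative level of the rest. The other members differed among the CPB libraries, with Vwf at -0.47 to 1.23, Egfl7 at -0.79 to 0.49 and Eng at 0.10 to 1.36. In CPB+Nitrite, Vwf lay at -1.45 to -0.72, below every CPB and every sham library (-0.64 to 0.35). Against the median of the other 7 genes it overlapped sham (-2.21 to -0.58 in CPB+Nitrite and -0.70 to 0.66 in sham). The CPB+Nitrite libraries differed from each other for Cdh5 and Plvap. CPB+Nitrite 1 was near the CPB values (Cdh5 1.79, Plvap -1.90), CPB+Nitrite 3 and 4 were between CPB and sham for Plvap (-0.67 and -0.76, the former within the sham range), and CPB+Nitrite 2 had Plvap far above the sham range (2.38) and Cdh5 within it (-0.22), although its Cdh5 and Robo4 levels in CPM were above every sham library. Plvap made up 58% of the summed CPM of the 8 genes in CPB+Nitrite 2, against 14.9% to 28.6% in sham and 7.04% to 9.09% in CPB.

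**Figure D3:**
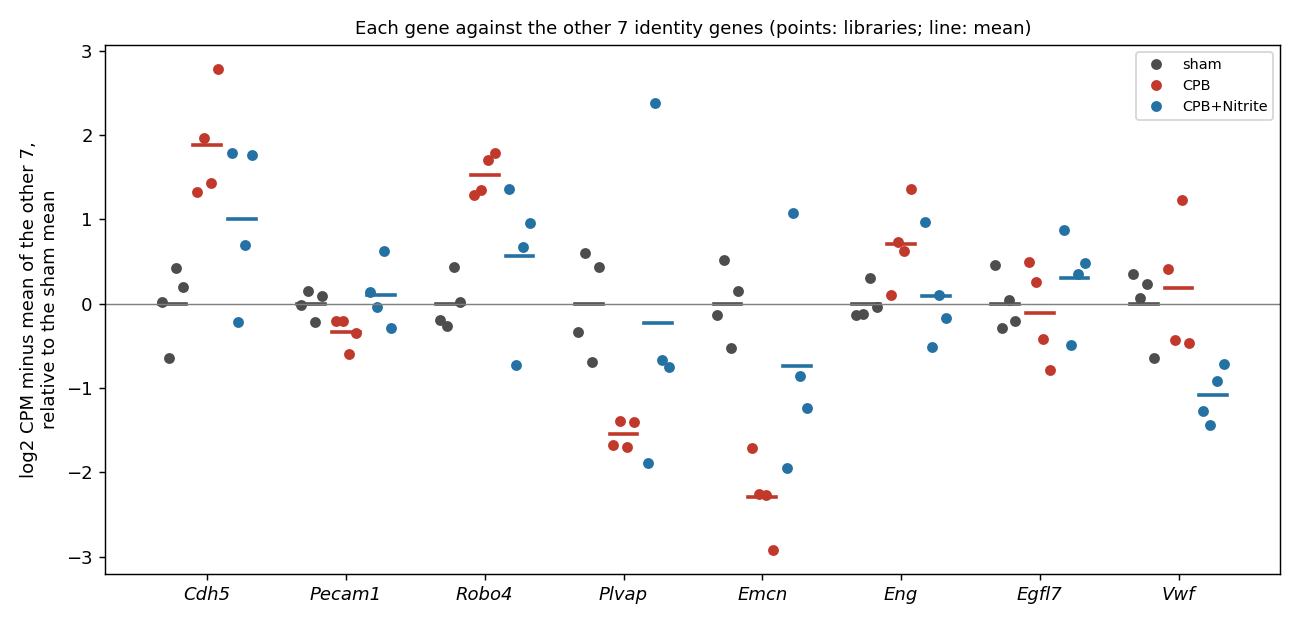
Log2 CPM of each gene minus the mean of the other 7 genes in the same library, relative to the sham mean, 1 point per library, with lines at group means. The CPB libraries lie above the sham libraries for Cdh5 (1.32 to 2.79) and Robo4, and below them for Plvap and Emcn, while CPB+Nitrite 2 lies at 2.38 for Plvap.

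Other genes known from endothelium in general divided in the same 2 directions after bypass. Of 24 listed, 23 were found and tested, 5 rose and 3 fell in CPB versus sham, with a median of -0.07. A share of 8 in 23 is again no larger than the 43.2% of all genes. The count was 5 without sham 2 and 4 without CPB 4. Over all genes, 4692 passed without sham 2, the lowest such count with 1 library left out. Named after their values were seen, the risers were Ecscr (1.54, adjusted p = 0.00197), which encodes an endothelial surface sialomucin, Gpr4 (1.46, adjusted p = 0.00224), a proton-sensing receptor, Rasip1 (1.12, adjusted p = 0.00797), a Rap1 effector in vessel lumen formation, Myct1 (1.09, adjusted p = 0.0193) and the VEGF receptor gene Flt1 (0.92, adjusted p = 0.0331). Those that fell were Tek (-2.68, adjusted p = 0.0261), the angiopoietin receptor TIE2, Cd34 (-2.63, adjusted p = 0.0165), another sialomucin, and Icam2 (-1.51, adjusted p = 0.0259), an endothelial adhesion molecule. Tek was at 19.1, 34.0, 9.85 and 32.7 CPM in sham, at 4.86, 4.91, 2.66 and 2.34 CPM in CPB and at 5.16, 129, 13.1 and 11.3 CPM in CPB+Nitrite. As for Emcn, CPB+Nitrite 1 lay near the CPB values, CPB+Nitrite 3 and 4 within the sham range and CPB+Nitrite 2 above every other library.

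With nitrite against CPB, 0 of the 23 passed (11 without CPB+Nitrite 1, where 2865 of all genes did). Of the 23, 13 had an unadjusted p below 0.05 and 21 were above 0, with a median of 1.02. Over all genes tested, 29.4% had an unadjusted p below 0.05 and 54.1% were above 0, with a median of 0.05. The 6 with the smallest p were Nos3 (1.52, adjusted p = 0.0556), which encodes endothelial nitric oxide synthase, the transcription factor gene Sox17 (1.36, adjusted p = 0.0556), S1pr1 (1.02), a sphingosine-1-phosphate receptor, Cd93 (1.50), Icam2 (2.02) and Cd34 (3.17), the last 4 at an adjusted p of 0.0576. With CPB+Nitrite 2 left out, the median of the 23 was 0.58, with 20 above 0 and 10 at an unadjusted p below 0.05. Of all 14778 genes tested in that fit, 53.7% were above 0 and 2991 had an unadjusted p below 0.05. Cd34 was then at 1.76 (SE 0.50) and Nos3 at 1.37 (SE 0.27, adjusted p = 0.104), so the library moved Cd34 far more than Nos3. It was at 9.39, 8.57, 12.7 and 13.1 CPM in sham, at 11.7, 14.0, 7.42 and 11.3 CPM in CPB and at 21.2, 41.1, 23.4 and 41.3 CPM in CPB+Nitrite, where all 4 libraries lay above the other 8. Against sham, 6 of the 23 rose and none fell, where 3.85% of all genes rose and 0.955% fell. The count that rose was 0 without sham 1, 2 or 4 or CPB+Nitrite 4, and 3 without CPB 2 or CPB+Nitrite 1. Over all genes the calls were 3 of 14813 without sham 1, and 0 without sham 2 or CPB+Nitrite 4. All 23 were above 0 (52.9% of all genes), and the median was 0.84. Nos3 was among the risers (1.53, adjusted p = 0.0262). In the fit without CPB+Nitrite 2 the count of risers was again 6, where 12.2% of all genes passed. There 17 of 23 were above 0 (49.5% of all genes) and the median was 0.64, with Tek at -1.28 and Cd34 at -0.87.

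**Figure D4:**
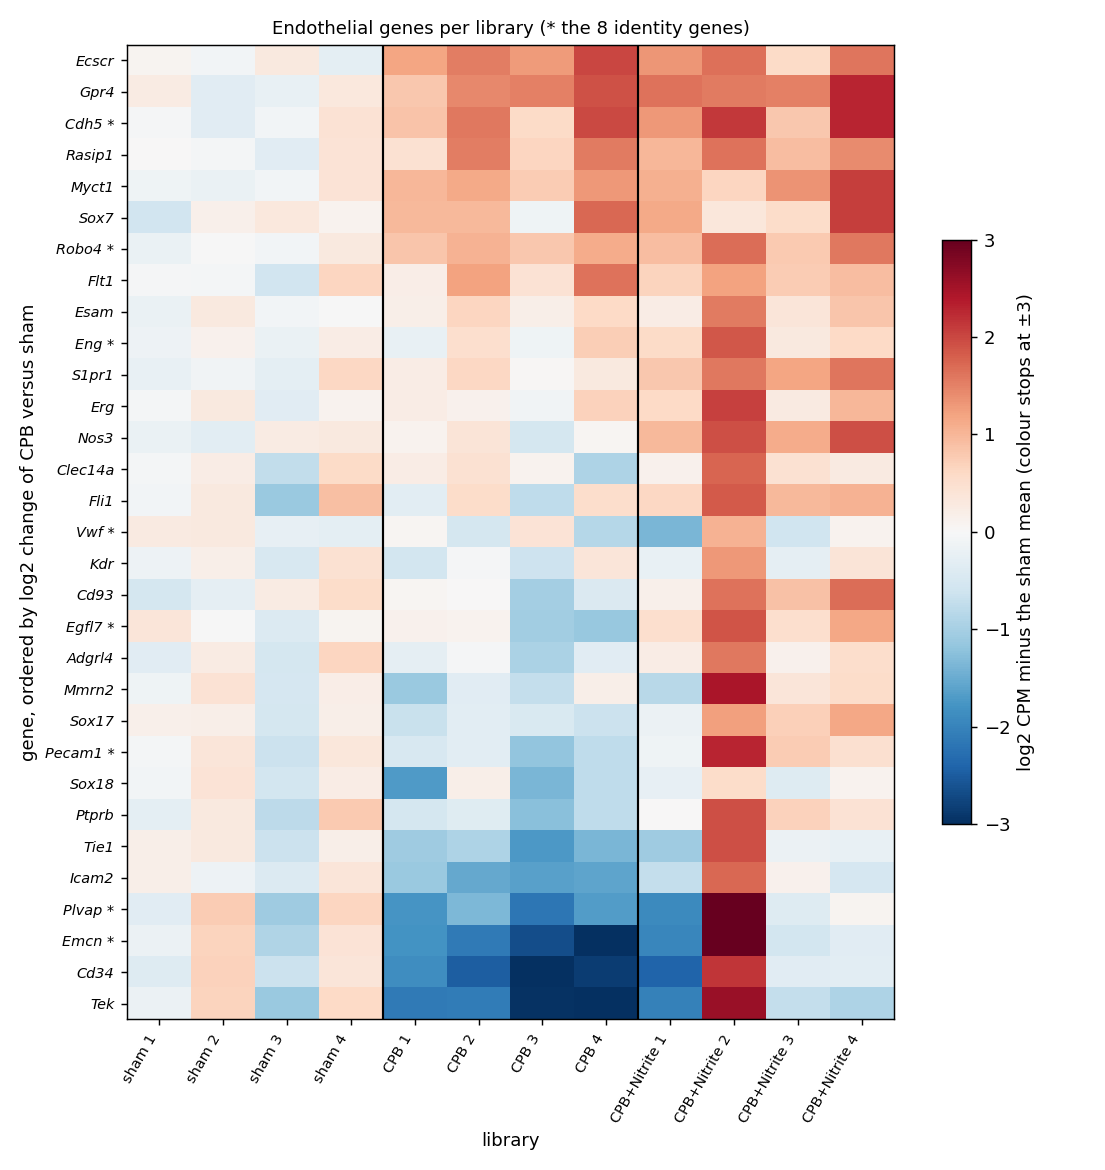
Log2 CPM relative to the sham mean for the 8 endothelial genes and the 23 other endothelial genes (rows) in the 12 libraries (columns); red is higher and blue lower than sham. The CPB columns are red for Cdh5, Robo4, Ecscr and Gpr4 and blue for Emcn, Tek and Cd34, and CPB+Nitrite 2 is red for the last 3.

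Partners of these genes were followed by role. VE-cadherin is linked to actin by catenins, and of 8 junction partners 5 rose and 1 fell in CPB versus sham (median 0.64), where 21.7% of all genes rose and 21.5% fell. The risers were Ctnna1 (alpha-catenin, 0.87), Tjp1 (ZO-1, 0.94), Jup (plakoglobin, 0.71), Ctnnd1 (p120-catenin, 0.67) and Afdn (afadin, 0.61), and Jam3, which encodes a junctional adhesion molecule, fell (-1.93). These genes are also expressed in tubular epithelium. With nitrite versus CPB, Jam3 was at 1.98 and Jam2 at 1.68, both lower without CPB+Nitrite 2 (Jam2 at 0.95), and 0 of 8 passed.

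Of 8 genes of endoglin signalling, 2 rose and 2 fell in CPB versus sham (median 0.35), a share close to the 43.2% of all genes. The counts were 3 and 3 without CPB+Nitrite 2 (51.3% of all genes passed), and 2 and 0 without sham 1 (33.9%). Those that rose were Smad1 (1.53, adjusted p = 0.00188), a signal transducer of BMP receptors, and the type II receptor gene Bmpr2 (0.88, adjusted p = 0.0116). Those that fell were Id1 (-1.02, adjusted p = 0.0181), a BMP target, and the inhibitory Smad6 (-0.58, adjusted p = 0.0413). Acvrl1, the BMP9 receptor ALK1, was at -0.65 (adjusted p = 0.18). Against CPB, CPB+Nitrite had 0 of 8 past the threshold, with Smad6 at 1.01 (adjusted p = 0.0556) and Acvrl1 at 1.26 (adjusted p = 0.0729), which were 1.12 and 0.68 without CPB+Nitrite 2. Of 6 Slit and Robo genes, 0 rose and only Slit2, which encodes a secreted guidance ligand, fell in CPB versus sham (-0.68, adjusted p = 0.0244). This did not hold without sham 1 (0 of 6), and 21.5% of all genes fell in the fit of all 12 libraries. Unc5b, a receptor known to bind Robo4, was at 1.19 in CPB+Nitrite versus CPB (adjusted p = 0.0556), where 0 of 6 passed.

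Of 6 other genes of the Weibel-Palade body and of von Willebrand factor handling, only Selp passed in CPB versus sham (median of the 6 at 0.02), and it rose. Of all genes 43.2% passed there. Selp encodes P-selectin, the leukocyte adhesion receptor stored beside von Willebrand factor. Selp was at 4.84, 2.17, 8.10 and 1.499 CPM in sham, at 16.2, 44.3, 38.5 and 52.2 CPM in CPB and at 31.7, 9.67, 6.76 and 26.3 CPM in CPB+Nitrite. All CPB libraries lay above all sham libraries (3.18, adjusted p = 0.00257), and CPB+Nitrite overlapped both groups. Of 13 genes of endothelial activation 6 rose in CPB versus sham and 0 fell (median 0.70), where 21.7% of all genes rose and 21.5% fell. Among the risers were Selp, Icam1 (2.39), Klf4 (2.01), Procr (1.96) and Edn1 (1.17). Several of these are also made by tubular, immune or stromal cells. Without CPB+Nitrite 2 the risers were again 6, and Klf2 (-1.08, adjusted p = 0.047) and Thbd (-1.09, adjusted p = 0.0491) fell, beside 51.3% of all genes that passed. Against sham, 5 of the 13 rose in CPB+Nitrite (among them Procr, Klf4, Icam1 and Esm1), where 3.85% of all genes rose. Against CPB 0 of 13 passed. There the flow-responsive Klf2 was at 1.96 (adjusted p = 0.0576) and Thbd, which encodes thrombomodulin, at 1.89 (adjusted p = 0.0568), and at 1.52 and 1.68 without CPB+Nitrite 2.

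Markers of glomerular endothelium and of neighbouring cells were compared between the same groups. Beside the counts below, 21.7% of all genes rose and 21.5% fell in CPB versus sham. The share that passed was 43.2%, or 51.3% without CPB+Nitrite 2 and 33.9% without sham 1. The CPB libraries lay wholly above the sham libraries for 23.5% of all genes. Of 6 glomerular endothelial genes, Ehd3 (-1.94, adjusted p = 0.0484) and Gata5 (-2.17, adjusted p = 0.00677) fell in CPB versus sham. Gata5 had few reads (246 over the 12 libraries), at 0.78 to 2.37 CPM in sham and 0.13 to 0.65 CPM in CPB. None of the 6 passed upwards, although Plat, tissue plasminogen activator, was higher in all 4 CPB libraries than in any sham library (0.92, adjusted p = 0.0718). When CPB+Nitrite 2 was left out, Plat passed (adjusted p = 0.0223) and Nostrin fell as well (-0.76, adjusted p = 0.0272), 1 higher and 3 lower in all, and without sham 1 only Gata5 passed. Plat rose in CPB+Nitrite versus sham (1.95, adjusted p = 0.031, and 1.45 without CPB+Nitrite 2). Pericyte and smooth muscle markers were lower in CPB versus sham for 9 of 9, of which 6 passed (median -1.46), among them Acta2 (-2.61, adjusted p = 0.00759) and Notch3 (-1.38, adjusted p = 0.0048). Of all genes tested, 7711 of 14664 were below 0. Sham 1 held Acta2 at 118 CPM against 14.8 to 21.1 CPM in the other sham libraries. Without sham 1, an alternative added after seeing the data for gene lists, 8 of 9 were below 0 and 4 passed, the median was -0.93, and Acta2 was at -1.39 (adjusted p = 0.0188). Their mean log2 level relative to sham was -1.85 to -0.603 in CPB, -0.883 to 1.23 in sham and 0.282 to 0.441 in CPB+Nitrite, so CPB+Nitrite 2 did not stand apart in this list. Urothelial markers had a median of -4.15 in CPB versus sham, with 2 of 5 lower, and -1.86 with 0 of 5 passing without sham 1, and they summed to 112 CPM in CPB+Nitrite 1. Adipocyte markers had a median of -2.25 with 1 of 5 lower, and -0.85 with 0 of 5 without sham 1. Of 6 podocyte markers none passed in CPB versus sham, and of 9 leukocyte markers tested 3 rose and 2 fell. The part of these cell types in the endothelial values was not tested.

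**Figure D5:**
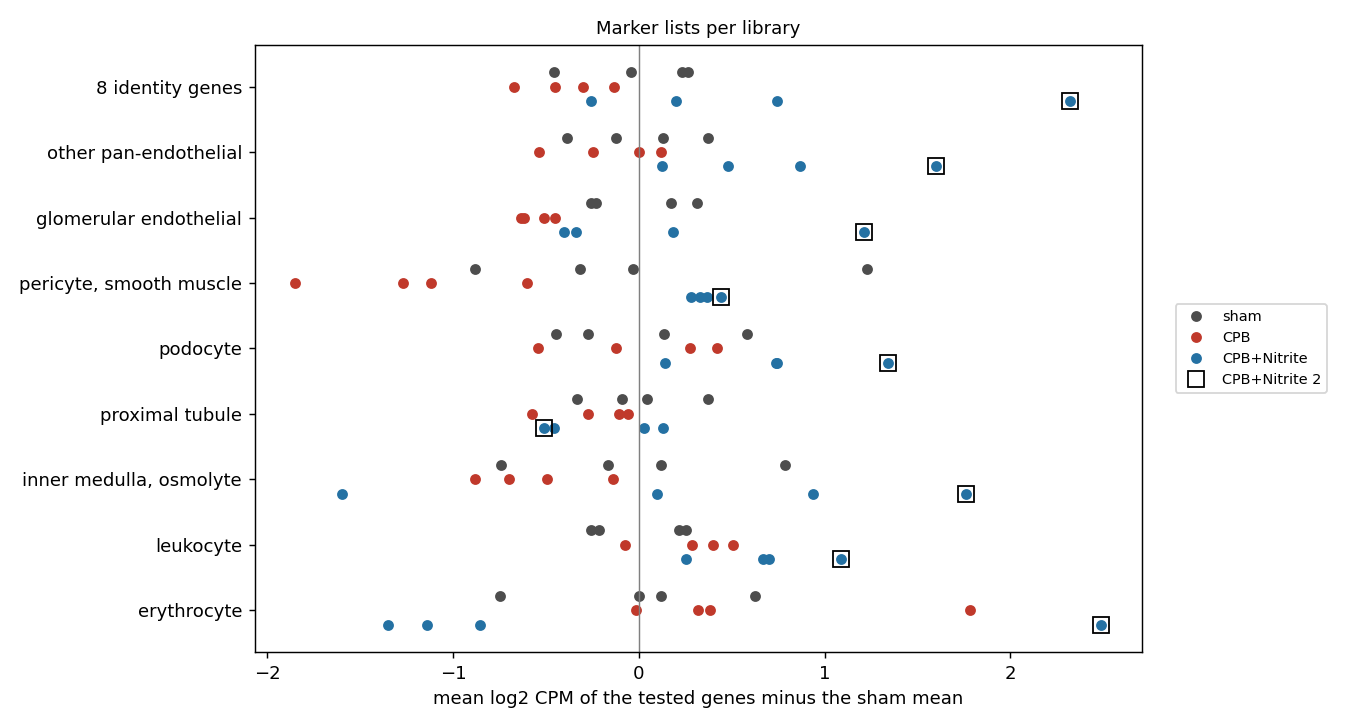
Mean log2 CPM relative to sham of marker lists (rows) in each of the 12 libraries, with points coloured by group. CPB+Nitrite 2 is the highest library for the 8 endothelial genes (2.32), the podocyte (1.34), erythrocyte (2.49) and inner medulla lists (1.76), and lies inside the sham range for pericyte and smooth muscle markers (0.441).

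The genes whose pattern was most like the 8 were sought by Pearson correlation over the 12 libraries, between the log2 CPM of each of 12453 other genes with a mean of at least 2 CPM and the mean z-score of the 8. The 10 highest were Elk3 (0.952), Nucb2 (0.948), Arhgdib (0.943), Prnp, Ppm1d, Ltbp1, Tgfb1 (0.937), Crispld2, Sh2d3c (0.936) and Mfge8 (0.935). The libraries share their depth scaling, and the z-score was 2.09 in CPB+Nitrite 2 and -0.689 to 0.724 in the other 11, so that library weighs heavily in these coefficients. Without it, Elk3, which encodes an ETS factor, was at 0.889, Tgfb1 at 0.894 and Sh2d3c at 0.882, and these remained within the 10 highest over 11 libraries. Arhgdib was at 0.742.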

How the data were processed

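RNA of rat kidney was sequenced in 12 libraries, grouped by the sample labels. Per the labels' protocols the libraries were strand-specific. Per the submitters' processing notes reads were handled with Salmon 1.2.1 beside cutadapt 1.18, bcl2fastq 2.19 and R 3.5.1 (order and options not given), on mRatBN7.2. The authors deposited estimated counts per Ensembl gene, not normalised. The step from transcripts to genes is not given in the sources used here. A second deposited table held a scaled signal, the authors' counts multiplied by 1 factor per library, and supplied symbols and coordinates.

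Estimated counts were rounded and filtered with edgeR's filterByExpr (minimum count 10), which kept 14664 genes with 99.95% of the reads. They were scaled with TMM factors (0.887 to 1.11) and fitted with edgeR 4.0.16 in R 4.3.3 (glmQLFit, glmQLFTest, 3 groups, no covariates, two-sided, 9 residual degrees of freedom). Adjusted p-values are Benjamini-Hochberg over all genes tested. The fit was checked on simulated counts. The biological coefficient of variation was 0.317, so 4 replicates limit precision more than depth.

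The 8 genes and the gene lists were chosen with earlier results of these data known. All 8 genes are named, with up to 6 other endothelial genes and up to 4 of any other list by the smallest p of CPB+Nitrite versus CPB, and genes chosen after their values were seen where a count of calls needed names. Alternatives were RLE factors, total counts, the authors' factors, no filter, a mean of at least 2 CPM, DESeq2 1.42.0, limma 3.58.1 voom with sample weights, only the 2 groups compared, the replicate number as a block and each library left out. The values of 1 listed gene are not reported here.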

Additional observations from a re-analysis of the deposited data

Results flagged for a closer look

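In 3 of the 24 groups of 4 libraries examined (8 genes in 3 groups), 1 library lay far from the other 3, with a gap to its nearest neighbour above Dixon's critical value for its share of the group's range. Chance gives about 1 in 20 groups if the values are normally distributed. The values compared were CPM, not log2 CPM, and whether the flags hold on a log scale was not tested. All 3 were in CPB+Nitrite 2, so they come from 1 library and are not independent. Plvap was at 1380.5 CPM there, the next library at 69.0 CPM, and the gap was 0.962 of the range. Emcn was at 238.8 CPM with the next at 19.6 CPM (0.943 of the range). Eng was at 267.5 CPM with the next at 110.4 CPM (0.883 of the range).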

How the results depend on the processing

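Of the 8 genes, Cdh5 and Robo4 rose in CPB versus sham under every setting run. The 3 calls there became 5 by limma voom with sample weights, 5 in a fit of only the 2 groups compared, and 2 to 5 with 1 library left out, against 4 to 10 of the other endothelial genes and 4692 to 7574 of all genes. Total-count scaling moved the median of all genes from -0.05 to -0.24 and the calls to 2281 higher and 4269 lower, from 3184 and 3148.

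With nitrite against CPB, DESeq2 called 3 of the 8, 11 of the other endothelial genes and 2235 genes, and voom 1 gene. With 1 library left out the counts were 0 to 4, 0 to 11 and 0 to 2865. In CPB+Nitrite versus sham, DESeq2 called 4, 10 and 2144, voom 2870 of all genes, and the fit of only these 2 groups 0, 0 and 0. With 1 library left out they were 0 to 4, 0 to 9 and 0 to 2976, with 0 of all genes without sham 2 or CPB+Nitrite 4. Why the tools differ was not tested.

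Signs turned for Vwf, Plvap and Emcn. With 1 library left out, Vwf ran from -0.41 to 0.0066 (the latter without CPB 4) in CPB versus sham and from -0.35 (without CPB+Nitrite 2) to 0.46 in CPB+Nitrite versus CPB, where voom gave -0.12. For CPB+Nitrite versus sham it was -0.0046 with total counts, -0.46 by voom and -0.047 with the replicate block, and ran from -0.52 to 0.31 with 1 library left out, below 0 without sham 3, sham 4 or CPB+Nitrite 2. There Plvap was -0.44 by voom and ran from -0.70 (without CPB+Nitrite 2) to 2.74, and Emcn was -0.71 by voom and ran from -0.92 (without CPB+Nitrite 2) to 1.75. Taking the median of the other 7 genes as the reference, an alternative chosen after seeing the data, gave mean relative levels in CPB of -1.74 for Plvap (-1.55 with the mean) and -1.65 for Emcn (-2.29).

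Replicate numbers were not shown to pair the libraries, since same-numbered libraries correlated between -0.107 and 0.381 and 5, 2 and 0 of 8 libraries correlated best with their own number in the 3 pairs of groups. With the replicate block, CPB+Nitrite versus sham had 3 calls among the other endothelial genes and 28 among all genes, and the 8 genes had 3, 0 and 2 calls, as without it.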

Other observations

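Markers of vessel type gave few calls. Of 7 arterial endothelial genes 0 passed in any of the 3 comparisons. In CPB+Nitrite versus CPB their median log2 change was 0.78. The connexin gene Gja5 was at 0.92 (adjusted p = 0.0957) and the ephrin gene Efnb2 at 0.78 (adjusted p = 0.109). Each was higher in all 4 CPB+Nitrite libraries than in any CPB library (2 of 7, beside 6.44% of all genes). Of 3 venous genes only Ephb4, the receptor that binds ephrin-B2, fell in CPB versus sham (-0.67, adjusted p = 0.0107), where 21.5% of all genes fell. Of 5 lymphatic genes 0 passed in any of the 3 comparisons. Lyve1, a hyaluronan receptor that macrophages can also carry, was at 1.85 in CPB+Nitrite versus CPB (adjusted p = 0.0645), or 0.83 without CPB+Nitrite 2, and the lymphatic list summed to 97.5 CPM in CPB+Nitrite 2 against 17.1 to 53 CPM in the other 11 libraries.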
